A study of Mus musculus with 2 samples.

Results

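The autophagy machinery described here is a set of 34 listed mouse genes, matched by GENCODE M21 gene identifier in RNA sequencing libraries of regulatory T cells. All 34 were found among the 55536 annotated genes of the larger gene tables that were deposited. The rule lists them by name and holds no threshold on a measured value. PolyA-selected RNA was sequenced from primary regulatory T cells of 1 adult male mouse, aged 4 months. Its strain, Foxp3CreERT2 x Rosa26YFP, joins an inducible Cre recombinase expressed from the Foxp3 locus to a fluorescent Cre reporter. The labels give no treatment and no sort or gate, and trace the cells to a haematopoietic cell of the bone marrow. Library 2 and library 1 are technical replicates of that sample, so the series holds 1 group, no control and no condition. Every SD below has n = 2 libraries of the same cells, and neither an SD nor a p-value here covers the spread between mice.

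Autophagy delivers cytoplasm and damaged organelles to lysosomes inside a double membrane, the autophagosome. A kinase complex starts the process, a lipid kinase complex marks the membrane with phosphatidylinositol 3-phosphate (PI3P), and 2 conjugation reactions attach ubiquitin-like proteins of the LC3 and GABARAP families to it. In mice, deletion of Atg5 or Atg7 in regulatory T cells has been reported to impair their survival and their lineage stability. The libraries measured RNA only, so protein and autophagic flux are not covered.

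The libraries held 16153560 estimated counts on annotated genes in library 2 and 15821759 in library 1. All 6 markers on the regulatory T cell list and all 4 on the T cell list reached 1 TPM, a length-scaled relative transcript level, in both libraries. Foxp3, the lineage-defining factor, stood at 36.2 TPM in library 2 and 43.2 TPM in library 1. Of the other lists, 4 of 5 CD8 T and NK cell markers, 1 of 4 B cell, 1 of 5 myeloid, 0 of 5 neutrophil, 2 of 4 red cell and 0 of 3 progenitor markers did so. The summed level of the CD8 T and NK cell list was 96.9 TPM in library 2 and 93.3 TPM in library 1, mostly from Nkg7 with 78.8 TPM in library 2 and 78.3 TPM in library 1. The summed level of the B cell list was 35.0 TPM in library 2 and 35.1 TPM in library 1, nearly all from Cd79b. The myeloid list summed to 4.02 TPM in library 2 and 5.00 TPM in library 1. The part of such cells in the levels below was not tested, and in a bulk sample fewer cells of a type and less RNA per cell cannot be told apart.

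Of the 34 autophagy genes, 32 reached 1 TPM in both libraries, against 24.3% of all annotated genes and 46.5% of the 22028 protein-coding ones. TPM is scaled for transcript length, so levels can be compared between genes on that scale. Wipi1 and Map1lc3a were the 2 genes below it. At higher levels, 30 genes reached 5 TPM in both libraries, 15 reached 20 TPM and 3 reached 100 TPM. The median of all 34 members, Wipi1 and Map1lc3a included, was 18.6 TPM. For the 10251 protein-coding genes that reached 1 TPM it was 18.5 TPM, and 17 members lay above that value. Over protein-coding transcripts only, the median member stood at 8.23 TPM, and no such median was computed for other genes. Over all transcripts, mean levels ran from 0.08 TPM for Wipi1 to 362 TPM for Map1lc3b. Of the 33 neighbouring pairs in the order of levels, 18 had overlapping library values, and the others kept their order in both libraries.

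**Figure D1:**
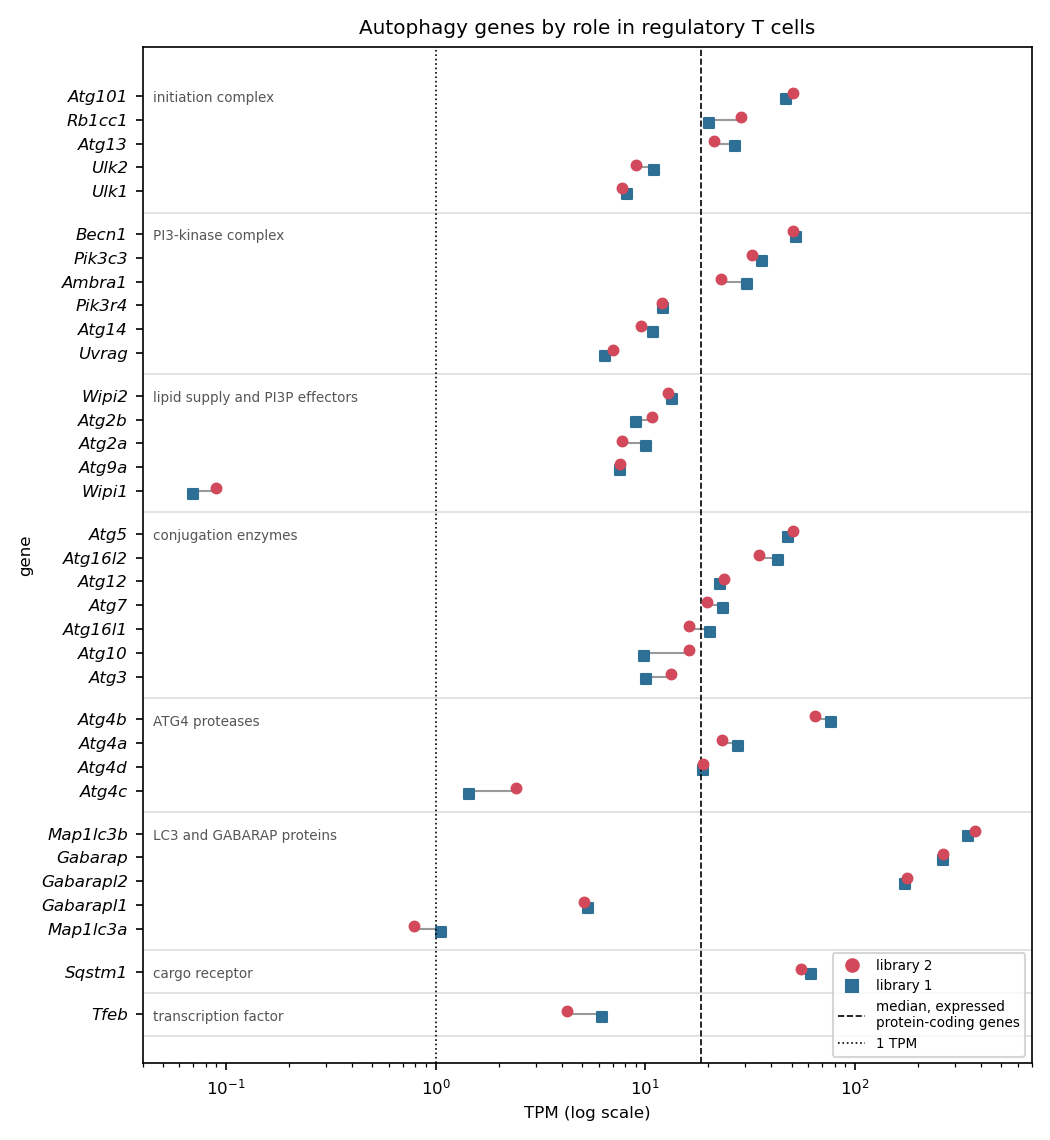
TPM (log axis) of each autophagy gene in library 2 (circles) and library 1 (squares), grouped by role, with the median of expressed protein-coding genes (dashed, 18.5 TPM) and the 1 TPM threshold (dotted). Map1lc3b, Gabarap and Gabarapl2 stand apart at the high end, from 174 to 376 TPM, and Wipi1 and Map1lc3a fall below the threshold in at least 1 library.

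RNA for all listed subunits of the kinase complex that starts autophagy reached 1 TPM, and the accessory subunits were higher than the kinases. Atg101, which stabilises Atg13 in the complex, had 50.4 TPM in library 2 and 46.8 TPM in library 1. Rb1cc1, the scaffold also called FIP200, had 28.7 TPM in library 2 and 20.2 TPM in library 1. The library ranges of Atg13, the adaptor subunit, lay inside the range of Rb1cc1, at 21.3 TPM in library 2 and 26.8 TPM in library 1. The 2 kinases were lower. Ulk2 had 9.0 TPM in library 2 and 11.01 TPM in library 1, and Ulk1 had 7.75 TPM in library 2 and 8.20 TPM in library 1. Ulk2 was thus 1.16 times Ulk1 in library 2 and 1.34 times Ulk1 in library 1. Counted over protein-coding transcripts only, that ratio was 0.82 in library 2 and 1.25 in library 1, so the order of the kinases is not fixed by these data.

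In the lipid kinase complex, the catalytic subunit Pik3c3 (VPS34) had 32.5 TPM in library 2 and 36.3 TPM in library 1. Its regulatory partner Pik3r4 (VPS15) had 12.1 TPM in library 2 and 12.2 TPM in library 1, without overlap with Pik3c3. Becn1, the Beclin 1 subunit on which both forms of the complex are built, was highest over all transcripts, at 50.6 TPM in library 2 and 52.4 TPM in library 1. Over protein-coding transcripts only, Becn1 averaged 4.14 TPM, below Pik3c3 with 34.1 TPM, Ambra1 with 20.5 TPM and Atg14 with 9.80 TPM. Atg14 directs the complex to autophagosome formation and Uvrag defines the alternative, endosomal form. Atg14 had 9.57 TPM in library 2 and 10.9 TPM in library 1, above Uvrag with 7.05 TPM in library 2 and 6.43 TPM in library 1. Ambra1, a regulator of Beclin 1 and of the ULK kinases, had 23.1 TPM in library 2 and 30.6 TPM in library 1.

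Genes that supply lipid to the growing membrane, or read PI3P on it, were the lowest group with several members over all transcripts, with a median of 8.94 TPM. Atg9a, a lipid scramblase carried on vesicles, had 7.54 TPM in library 2 and 7.59 TPM in library 1. The lipid transfer proteins Atg2b and Atg2a overlapped, with 10.7 TPM in library 2 and 9.08 TPM in library 1 for Atg2b, and 7.74 TPM in library 2 and 10.1 TPM in library 1 for Atg2a. Over protein-coding transcripts only, Atg2b was 0.58 times Atg2a in library 2 and 0.51 times in library 1. Of the 2 genes here for the PI3P-binding WIPI proteins, Wipi2 was the one that reached 1 TPM. Wipi2, which recruits Atg16l1, had 12.8 TPM in library 2 and 13.4 TPM in library 1. Wipi1 rested on 2 counts in library 2 and 3 counts in library 1, no more than the 3 counts that an observed count of 0 would allow. The other WIPI family genes, which are outside the 34, were above Wipi2, Wdr45b with 21.5 TPM in library 2 and 19.1 TPM in library 1 and Wdr45 with 31.8 TPM in library 2 and 31.1 TPM in library 1.

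All 7 conjugation genes reached 1 TPM, with Atg5 highest and Atg3 lowest by mean over all transcripts. Atg7, the E1-like enzyme of both conjugation reactions, had 19.6 TPM in library 2 and 23.5 TPM in library 1. Its 2 E2-like partners were lower, Atg3, which loads LC3, with 13.3 TPM in library 2 and 10.04 TPM in library 1, and Atg10, which loads Atg12, with 16.2 TPM in library 2 and 9.92 TPM in library 1. Those 2 ranges overlapped. Atg12 and Atg5 form the covalent conjugate that acts with Atg16l1 as the E3-like step. Atg5 had 50.6 TPM in library 2 and 47.7 TPM in library 1, and Atg12 had 23.8 TPM in library 2 and 22.7 TPM in library 1. Atg5 was therefore 2.13 times Atg12 in library 2 and 2.10 times in library 1, and this ratio stayed at 2.02 in library 2 and 2.03 in library 1 over protein-coding transcripts. Atg16l2, a paralogue of Atg16l1, exceeded it, with 34.7 TPM in library 2 and 43.0 TPM in library 1 against 16.2 TPM in library 2 and 20.3 TPM in library 1 for Atg16l1. That excess did not hold over protein-coding transcripts, where Atg16l2 was 1.23 times Atg16l1 in library 2 and 0.96 times in library 1.

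The ATG4 proteases trim newly made LC3 and GABARAP proteins and later release them from lipid. Atg4b led them with 64.7 TPM in library 2 and 76.7 TPM in library 1. Atg4a had 23.3 TPM in library 2 and 27.6 TPM in library 1, Atg4d had 18.8 TPM in library 2 and 18.9 TPM in library 1, and Atg4c had 2.41 TPM in library 2 and 1.44 TPM in library 1. The 4 paralogues did not overlap. Over protein-coding transcripts only, the means were 30.9 TPM for Atg4b, 24.6 TPM for Atg4a and 4.1 TPM for Atg4d, so the lead of Atg4b over Atg4a narrowed to 1.20 times in library 2 and 1.31 times in library 1. Part of that Atg4b level came from Atg4b-203 and Atg4b-209, which are annotated with incomplete coding ends. Atg4b-201, its only complete protein-coding transcript, had 5.52 TPM in library 2 and 7.45 TPM in library 1. Atg4a-201 was above it, with 23.1 TPM in library 2 and 26.1 TPM in library 1. Atg4a shares 51.2% of its 50-base transcript windows with Atg4a-ps, which was itself at 1.80 TPM in library 2 and 2.99 TPM in library 1, so reads cannot always be assigned between the 2 genes.

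The proteins that ATG4 trims end in a short tail behind a glycine, which becomes the point of attachment to lipid. The coding ends of 4 of the 5 paralogues are shown because they hold that glycine. Each line gives the last 36 bases of the annotated coding sequence of the lowest-numbered complete protein-coding transcript in GENCODE M21, 5′ to 3′, stop codon included, on the plus strand of GRCm38. Capitals mark the codon of that glycine.
Map1lc3a: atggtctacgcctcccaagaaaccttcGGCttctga
Gabarap: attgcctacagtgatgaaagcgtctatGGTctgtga
Gabarapl1: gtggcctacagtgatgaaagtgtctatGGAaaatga
Gabarapl2: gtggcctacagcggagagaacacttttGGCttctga

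These ends lie at chr2:155277602-155277637, chr11:69994489-69994524, chr6:129541132-129541167 and chr8:111952370-111952405 in the order of the lines. The glycine is codon 120 in Map1lc3a and codon 116 in the 3 GABARAP genes. Over the aligned coding sequence, Map1lc3a and Map1lc3b shared 76.5% of bases, Gabarap and Gabarapl1 shared 74.9%, and Map1lc3b and Gabarap shared 53.1%. No 50-base window was common to any 2 of the coding sequences of the 5 LC3 and GABARAP genes, so a read of that length within them belonged to 1 paralogue.

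These 5 genes carried 56.5% of the summed TPM of the 34 in library 2 and 54.1% in library 1. Map1lc3b had 376 TPM in library 2 and 348 TPM in library 1. Gabarap had 264 TPM in library 2 and 263 TPM in library 1, and Gabarapl2 had 178 TPM in library 2 and 174 TPM in library 1. These 3 did not overlap each other or any other member. Gabarapl1 was far below its closest relative, with 5.11 TPM in library 2 and 5.31 TPM in library 1, so that Gabarap was 51.6 times higher in library 2 and 49.6 times higher in library 1. Map1lc3a had 0.79 TPM in library 2 and 1.06 TPM in library 1, from 8 counts in library 2 and 10 counts in library 1. None of those counts was assigned to its protein-coding transcript.

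The deposited credibility intervals, which go with the posterior mean, lay below the maximum likelihood TPM for the highest genes. For Map1lc3b they ran from 323 to 350 TPM in library 2 and from 297 to 323 TPM in library 1. For Gabarap they ran from 226 to 246 TPM in library 2 and from 225 to 244 TPM in library 1. The order of Map1lc3b over Gabarap held on both estimates of the larger gene tables in both libraries.

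Sqstm1, also called p62, binds ubiquitinated cargo and LC3. It had 55.6 TPM in library 2 and 61.5 TPM in library 1, and ranked 5 among the 34 genes by mean TPM. Tfeb, a transcription factor of lysosomal and autophagy genes, was low, with 4.22 TPM in library 2 and 6.24 TPM in library 1.

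The gene totals hide which transcripts they came from. GENCODE M21 annotates 239 transcripts for the 34 genes, and the deposited model splits each gene's TPM among them. The leading transcript, the one with the highest mean share of its gene's TPM, was protein coding in 26 genes. In the other 8 it was a retained-intron transcript (Pik3r4, Uvrag, Atg4d and Gabarapl2), a transcript annotated for nonsense-mediated decay (Becn1 and Atg4b) or a processed transcript (Atg2b and Map1lc3a). Nonsense-mediated decay removes RNA whose reading frame stops early. In 25 genes both libraries had the same leader, and in 9 they had different ones. Leaders and shares by transcript class were computed for the 34 genes only, so they cannot be read as particular to autophagy genes. Ranked by estimated count instead of TPM, 31 of the 34 genes were led by a protein-coding transcript. The same number of reads gives a shorter transcript more TPM. For Atg4d, for example, the 2123-base retained-intron transcript held 40.02% of TPM in library 2 and 49.98% in library 1, while the 5951-base protein-coding transcript led by counts.

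Across the 34 genes, the only ones for which this share was computed, protein-coding transcripts held a median of 70.7% of TPM. They held 90% or more in 9 genes and under 50% in 11. This class includes transcripts annotated with incomplete coding ends, such as Rb1cc1-212 and Tfeb-212. Members at the high end included Atg101 and Gabarapl1, at 100% in both libraries, and Map1lc3b, at 98.6% in library 2 and 99.0% in library 1. Among the conjugation genes, Atg5 had 69.5% in library 2 and 70.1% in library 1, whereas Atg16l2 had 26.6% in library 2 and 22.9% in library 1. The share was less stable for Atg10, with 31.0% in library 2 and 60.4% in library 1, and for Uvrag, with 29.6% in library 2 and 9.95% in library 1.

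**Figure D2:**
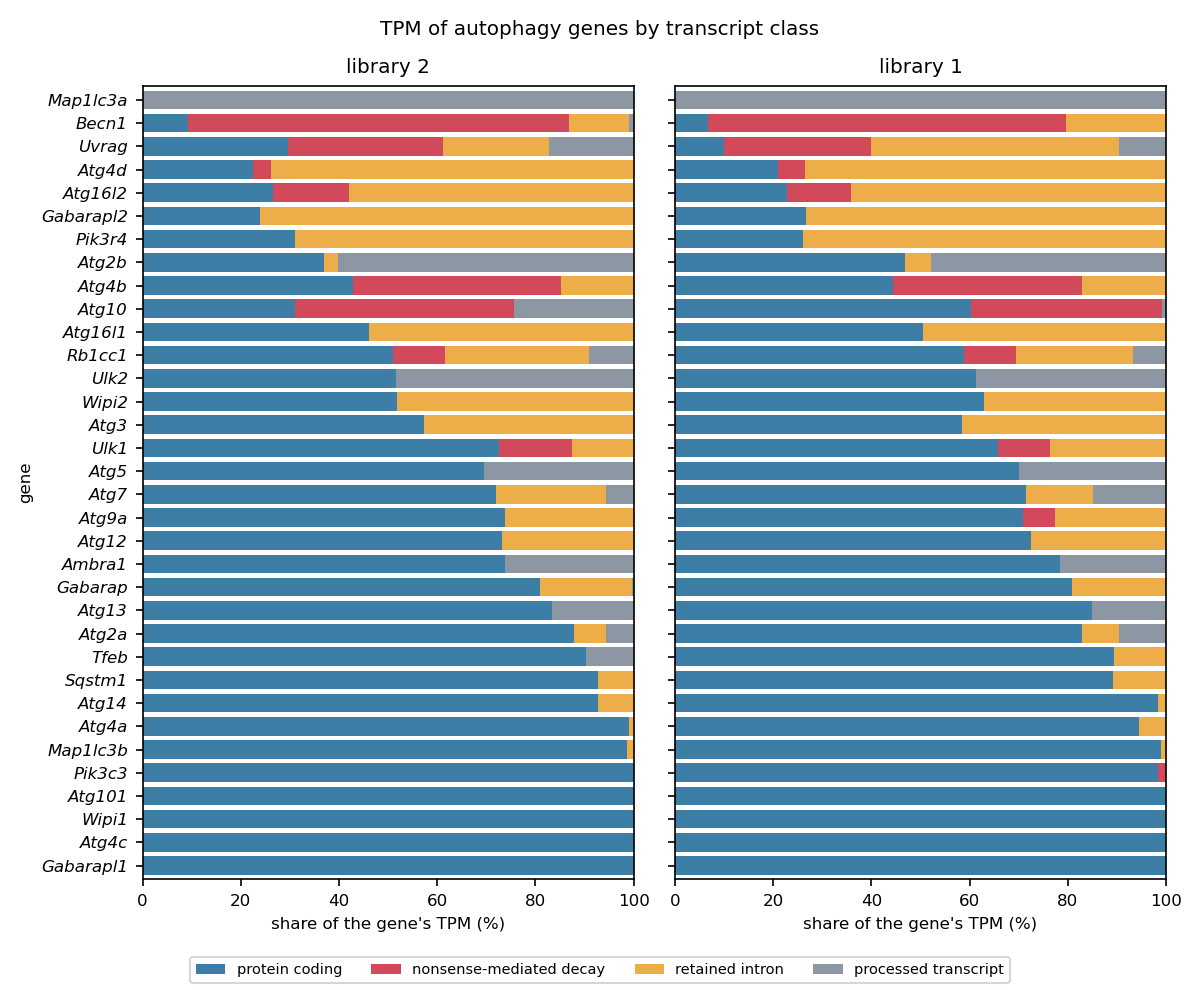
Share of each autophagy gene's TPM (%) held by protein-coding, nonsense-mediated decay, retained-intron and processed transcripts, in library 2 (left) and library 1 (right), with genes ordered by their mean protein-coding share. Becn1 is mostly in the nonsense-mediated decay class in both libraries, and Gabarapl2 is mostly in the retained-intron class.

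Becn1 had the lowest protein-coding share of the 32 genes that reached 1 TPM. The gene lies at chr11:101285952-101302286 on the minus strand of GRCm38 and has 17 annotated transcripts, of which 5 are protein coding. Its protein-coding transcripts held 9.30% of TPM in library 2 and 6.82% in library 1, from 75.5 estimated counts in library 2 and 76.5 in library 1. Becn1-201, annotated for nonsense-mediated decay, held 62.5% in library 2 and 57.7% in library 1. Becn1-205, the only Becn1 transcript annotated with the complete frame of 448 codons, held 0% in library 2 and 0.66% in library 1.

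Becn1-201 differs from Becn1-205 inside the coding sequence by 64 and by 4 extra bases at exon ends, and by a last exon that stops earlier. The first difference is shown because it sets the reading frame. Both sequences are on the minus strand, 5′ to 3′, and start with the same 24 bases before the end of that exon in Becn1-205. The capitals mark the stop codon that the extra bases bring into frame, after 105 codons.
Becn1-205: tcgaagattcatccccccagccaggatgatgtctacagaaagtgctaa
Becn1-201: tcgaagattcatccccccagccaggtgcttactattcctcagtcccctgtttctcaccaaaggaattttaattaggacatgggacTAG

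The Becn1-201 sequence is the unbroken stretch chr11:101296194-101296281, and that of Becn1-205 crosses the exon junction after 24 bases. In Becn1-201 the last exon junction lies 928 bases beyond the stop codon. The last exon bears on how reads were divided as well. It has 720 bases in Becn1-201 and 3030 bases in Becn1-205. The 3 annotated transcripts that end where Becn1-201 ends include 0 protein-coding ones. The deposited tables give no junction reads, so whether the cells carry the 64 bases or only the shorter last exon was not tested. Of the exonic bases of Becn1, 43.9% lie opposite exons of Cntd1 on the other strand, which had 20 estimated counts in library 2 and 0 in library 1.

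**Figure D3:**
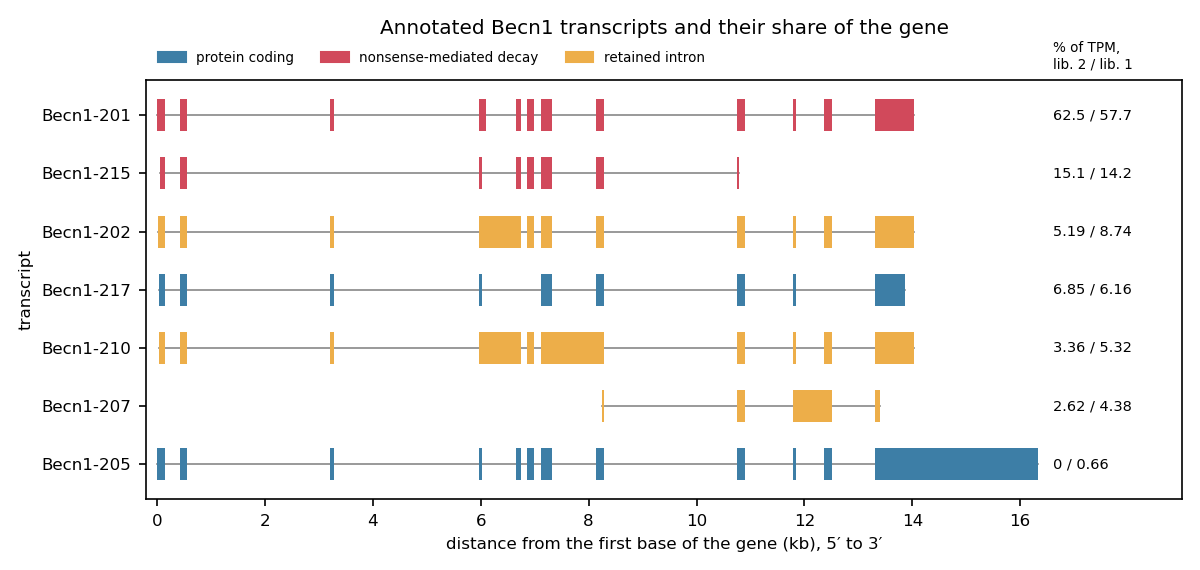
Exons (boxes) of the Becn1 transcripts with a mean share of at least 2% of the gene's TPM, and of Becn1-205, by distance from the first base of the gene (kb), coloured by annotated class, with each share in library 2 and library 1 at the right. Becn1-205 is the only one drawn whose last exon reaches the end of the gene, and it holds 0% in library 2 and 0.66% in library 1.

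Gabarapl2 showed the same kind of split. Its retained-intron transcript Gabarapl2-203, of 749 bases, held 75.8% of TPM in library 2 and 72.8% in library 1. It contains 320 of the 354 coding bases of Gabarapl2-201, including the end printed above, but not the start codon. Over the protein-coding transcript alone, Gabarapl2 had 42.7 TPM in library 2 and 46.3 TPM in library 1. The ratio of Gabarap to Gabarapl2 was then 5.01 in library 2 and 4.59 in library 1, instead of 1.48 in library 2 and 1.51 in library 1 over all transcripts. Most of the Gabarap side of the ratio over protein-coding transcripts was Gabarap-202, which has another reading frame, with 152 TPM in library 2 and 153 TPM in library 1. Gabarap-201, whose coding end is printed above, had 62.1 TPM in library 2 and 59.7 TPM in library 1, much nearer to Gabarapl2-201.

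Gabarap and Map1lc3b were each led by a protein-coding transcript other than the lowest-numbered one. Gabarap-202 held 57.4% of TPM in library 2 and 58.1% in library 1. It lacks 94 of the 354 coding bases of Gabarap-201, which shifts its frame, and its annotated stop codon lies 61 bases beyond that of Gabarap-201. Map1lc3b-205 held 52.6% of TPM in both libraries, contains all 378 coding bases of Map1lc3b-201 and has a longer annotated frame of 160 codons, against 125. By estimated counts Map1lc3b-201 led, with 57.8% in library 2 and 63.4% in library 1.

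The smaller gene tables, made on the older GENCODE M4 annotation from an earlier alignment of the same libraries, hold whole-number counts that sum to 3680387 in library 2 and 3746426 in library 1. For 31 of the 34 genes, those with a summed count of at least 200 in the larger tables, a member's share of counts in the smaller table was set against its share in the larger. The median ratio was 1.86 for the members and 1.70 for the 8940 genes compared. For 2 members the ratio was under 0.25, as it was for 6.91% of all genes compared. Map1lc3b had 109 counts in library 2 and 100 in library 1 in the smaller table, against 6406 in library 2 and 6007 in library 1 in the larger one, a share 13.8 times lower. Gabarapl2 had 25 counts in library 2 and 28 in library 1, against 2140 in library 2 and 2048 in library 1, a share 18.4 times lower. Gabarap had a ratio of 1.01, below both medians, and 26.0% of the genes compared had a lower one. In the smaller table Gabarap had 696 counts in library 2 and 681 in library 1, so there it stood above Map1lc3b in counts.

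Both genes share sequence with processed pseudogenes. In the leading transcript Map1lc3b-205, 37.8% of the 50-base windows also occur in transcripts of another gene, and in Gabarapl2-203 35.1% do. The pseudogene Gm6055, which shares windows with Map1lc3b, had 147 TPM in library 2 and 160 TPM in library 1, from 631 counts in library 2 and 654 counts in library 1. Gm3724, which shares windows with Gabarapl2, had 16.0 TPM in library 2 and 21.1 TPM in library 1. How the smaller table treated reads that match several places is not given in the sources used here, and its part in the difference was not tested. The standing of Map1lc3b and Gabarapl2 among the members therefore depends on the table. Gabarap shared 0% of its windows with another gene. The leading transcript of Atg4a shared 63.6% of windows. The ratio of that gene was 0.56, and 13.6% of the genes compared had a lower one. For Atg9a these values were 42.3% and 1.59, and for Atg12 they were 0.51% and 0.52. Windows of Atg9a were shared foremost with Gm29253, an overlapping gene on the same strand, and not with a processed pseudogene. Whether sharing goes with the ratio across the members was not tested.

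**Figure D4:**
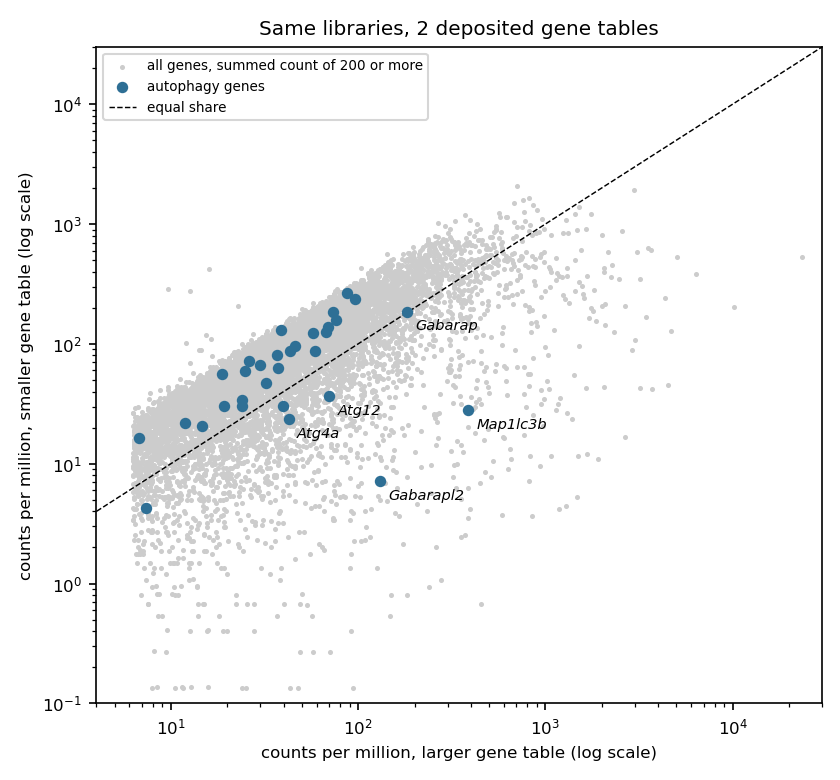
Mean CPM (counts scaled to a common library total) of each gene in the smaller gene table (vertical, log axis) against the larger one (horizontal, log axis), for the 8859 genes with a summed count of at least 200 in the larger table and a count above 0 in the smaller, with the 31 autophagy genes among them in blue and equal shares dashed. Map1lc3b and Gabarapl2 lie furthest below the line among the members, and Gabarap lies on it, while the median gene lies above it.

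The 2 libraries were compared gene by gene to measure technical spread. Of the 33 members with a summed count of at least 10, 14 differed at an adjusted p under 0.05 in an exact two-sided binomial test with Benjamini-Hochberg adjustment over all 17458 genes tested, of which 25.1% differed. Among the 31 members with a summed count of at least 200, 13 differed, against 31.8% of all such genes. Of the 33 members tested, 6 were called higher in library 2 (11.8% of all genes tested) and 8 were called higher in library 1 (13.4% of all genes tested). The test covers counting error only. For genes with a summed count of at least 200, the squared deviation per degree of freedom had a median of 2.75 and a mean of 12.8. Counting error alone gives a mean of 1, so the p-values of the test are too small.

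Differences between the libraries were small for most members. The median log2 ratio of library 2 over library 1 was -0.02 for the members and -0.00 for all genes tested, and the median size of the ratio was 0.16 for the members, 0.16 for the genes that reached 1 TPM in both libraries and 0.22 for all genes tested. Only Tfeb and Atg4c were both called and past 1.5-fold, as were 8.8% of all genes tested. Tfeb had 78 counts in library 2 and 137 counts in library 1 (log2 ratio -0.84, adjusted p = 0.000372, exact binomial test). Atg4c had 88 counts in library 2 and 51 counts in library 1 (log2 ratio 0.75, adjusted p = 0.0160, exact binomial test). Only Wipi1 and Map1lc3a had fewer summed counts than these 2 genes.

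The smallest adjusted p among the members was that of Ambra1, with 1306 counts in library 2 and 1749 counts in library 1 (log2 ratio -0.45, adjusted p = 9.54e-16, exact binomial test). Its leading transcript Ambra1-203 held 49.7% of TPM in library 2 and 74.4% in library 1. Rb1cc1 had 1330 counts in library 2 and 1025 counts in library 1 (log2 ratio 0.34, adjusted p = 3.04e-07, exact binomial test). Of the others called, Atg3, Atg10, Uvrag and Atg101 were higher in library 2, with log2 ratios between 0.19 and 0.47. Ulk2, Atg13, Atg4b, Atg16l1, Atg2a and Atg16l2 were lower in library 2, with log2 ratios between -0.40 and -0.25. In the smaller gene table, 13 of the 14 had a ratio of the same sign, all but Atg16l2. The 2 tables come from the same libraries, so that is no second measurement. Transcript length moved with the ratio across all genes, with a median log2 ratio of 0.07 in the shortest eighth of genes and -0.06 in the longest, and its part in these differences was not tested.

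**Figure D5:**
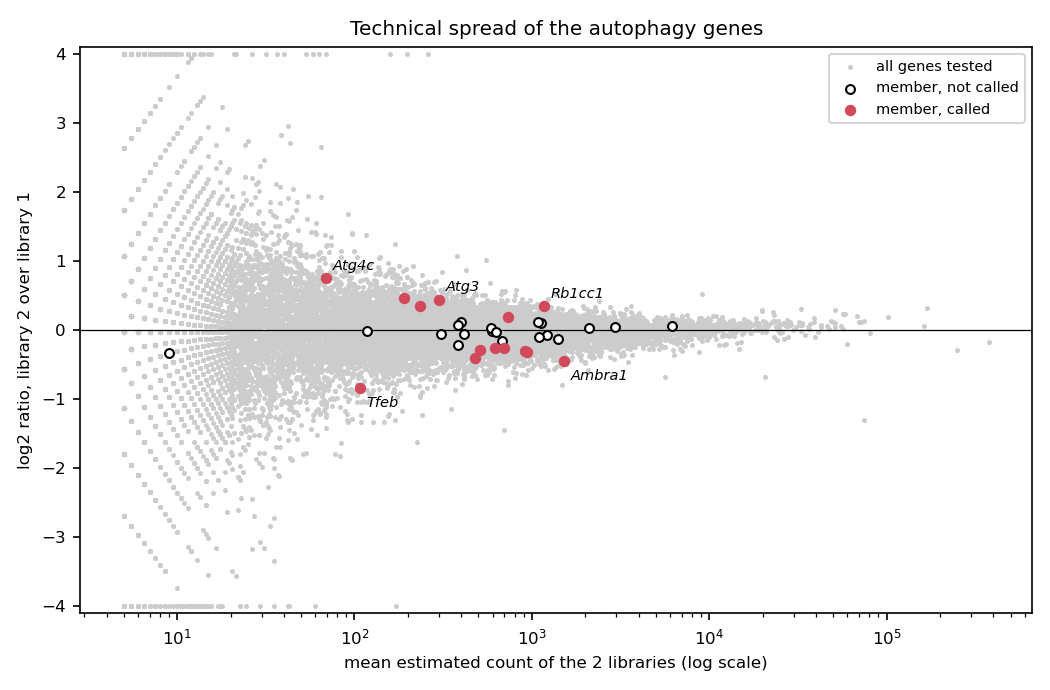
Log2 ratio of library 2 over library 1 against the mean estimated count (log axis) for all 17458 genes tested (grey) and for the autophagy genes that were called (red) and not called (open) in the exact binomial test, with 238 genes beyond a log2 ratio of 4 in either direction drawn at the edge. Tfeb at -0.84 and Atg4c at 0.75 are the called members furthest from 0, and all members lie within the cloud of other genes.

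The remaining autophagy pathway was described through 69 further genes in 6 groups, of which 63 reached 1 TPM in both libraries, with a median of 27.5 TPM. Cargo receptors reached it in 11 of 12 cases. Bnip3l, a receptor for mitochondria, was the highest with 384 TPM in library 2 and 365 TPM in library 1, and Optn, a receptor for ubiquitinated cargo, was the lowest with 0.75 TPM in library 2 and 0.73 TPM in library 1. All 9 other core factors reached it, from Vmp1, a scramblase of the endoplasmic reticulum, with 301 TPM in library 2 and 275 TPM in library 1, to Zfyve1, a PI3P-binding protein, with 7.79 TPM in library 2 and 8.64 TPM in library 1. Of the genes that fell short, 3 were upstream kinase or TORC1 genes and 2 were transcription factors.

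Of the 14 genes of AMPK, TORC1 and its inputs, 11 reached 1 TPM in both libraries. Prkag1, an AMPK subunit, was highest with 94.0 TPM in library 2 and 88.2 TPM in library 1. Prkaa2, 1 of the 2 catalytic AMPK subunits, had 0 counts in both libraries, which allows up to 0.186 CPM in library 2 and 0.190 CPM in library 1. The TORC1 components Akt1s1 and Deptor were low, Akt1s1 with 0.91 TPM in library 2 and 2.06 TPM in library 1 and Deptor with 0.21 TPM in library 2 and 0.16 TPM in library 1. Transcription factors were uneven as well. Of 6 transcription factors, 4 reached 1 TPM, Zkscan3 being highest with 33.8 TPM in library 2 and 33.0 TPM in library 1. Mitf had 0.59 TPM in library 2 and 0.33 TPM in library 1, and Tfec had 3 counts in library 2 and 0 counts in library 1.

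Downstream of the autophagosome, all 14 fusion genes and all 14 lysosomal genes reached 1 TPM. Vamp8, a fusion SNARE, was highest in its group with 257 TPM in library 2 and 234 TPM in library 1, and Epg5, a tether, was lowest with 3.87 TPM in library 2 and 3.51 TPM in library 1. Among lysosomal genes the protease Ctsb was highest with 372 TPM in library 2 and 386 TPM in library 1, and the protease Ctsl was lowest with 5.34 TPM in library 2 and 7.03 TPM in library 1. Between the libraries, 25 of the 67 pathway genes tested differed in the exact binomial test, beside 25.1% of all genes tested. Of the 67, 9 were called higher in library 2, beside 11.8% of all genes tested. The rest of the 25 were called higher in library 1, beside 13.4% of all genes tested. Among all genes with a summed count of at least 200, 31.8% differed.

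Tfeb and its relatives bind E-box sites, so the promoters of the members were searched for the E-box CACGTG and for its extended form TCACGTGA, each of which reads the same on both strands. RefSeq promoters (GRCm38.p6, 250 bases before to 50 after the gene start) were at hand for 28 of the 34 genes, all but Atg12, Atg16l1, Becn1, Rb1cc1, Pik3c3 and Map1lc3a. CACGTG occurred in 4 of the 28 (14.3%), Atg3, Atg5, Atg7 and Atg14, and in 8.09% of the 27025 promoters searched. The extended form, which contains the shorter one, occurred in Atg3 alone (3.57%) and in 1.12% of all promoters. The stretch of the Atg3 promoter that holds its 2 copies is shown because no other member had more than 1. It is chr16:45158723-45158775 on the plus strand, from 106 to 54 bases before the start, with the E-boxes in capitals.
Atg3: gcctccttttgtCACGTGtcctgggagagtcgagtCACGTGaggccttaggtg

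The second copy is the one inside the extended form. These matches describe letters only, and no binding was measured.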

How the data were processed

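Both libraries were deposited with 2 gene tables and 1 transcript table on mm10. Per the file headers and readme texts, the transcript table and the larger gene table are on GENCODE M21, with RSEM's column names. Their estimated counts (expected counts) are unscaled, their TPM and FPKM values were scaled by the authors for length and depth, and the transcript table gives the percent of a gene's TPM per transcript. The smaller gene tables were deposited as whole-number counts on GENCODE M4. No aligner, counting tool or strand setting is given in the sources used here.

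The 26345 features outside the annotation, spike-ins included, held 0.872% of TPM in library 2 and 0.898% in library 1 and were left out. All members are named, and of the other pathway genes the highest and lowest of each group and those under 1 TPM. The members and lists were chosen with earlier results of these data known. With 1 library on each side no dispersion can be estimated per gene, so estimated counts were rounded and compared by an exact two-sided binomial test (scipy 1.17.1) with TMM library sizes (edgeR 4.0.16), a summed count of at least 10, a prior count of 0.5 for ratios, and Benjamini-Hochberg adjustment over all genes tested. The code of the test was checked on simulated counts that held counting error only. That check cannot cover the wider spread of these libraries. Alternatives were size factors from DESeq2 1.42.0, total counts, other thresholds, posterior mean TPM, protein-coding transcripts only, the smaller table and each library alone. A floor of 3 counts, like the test, covers counting error only. Shared windows are 50-base stretches also present in a transcript of another gene. The end of 1 coding sequence is not reported here. Sequences came from the GENCODE M21 transcripts and from RefSeq promoters.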

Additional observations from a re-analysis of the deposited data

How the results depend on the processing

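The median level of the members was 18.6 TPM. It was 8.23 TPM over protein-coding transcripts only, and 15.7 TPM without Map1lc3b and Gabarapl2, a setting chosen after seeing the data, and it lay between 17.5 and 19.6 TPM in each library alone. Of the single genes, 23 were lower over protein-coding transcripts by at least their SD and 11 were not. The number of members that differed between the libraries was 14. It was 12 with no filter on low counts, which ended the calls of Atg101 and Uvrag, and 15 with DESeq2 size factors, which added Map1lc3b. It was 2 at 1.5-fold as well and 6 in the smaller gene table, where 5 of the 14 were called again together with Wipi2. Over all genes, 4384 differed, 1537 at 1.5-fold as well and 1172 in the smaller table. For the fall at 1.5-fold the stricter rule itself is the cause. For the smaller table, which holds fewer counts, the cause was not tested. DESeq2 size factors moved the median log2 ratio of the members to 0.00, against 0.02 for all genes tested. Under the other settings tried, thresholds of 0.5 and 5 TPM among them, the number of members expressed ran from 30 to 33, the number led by a protein-coding transcript from 25 to 31, and the number of other pathway genes expressed from 60 to 64. The lowest genes are limited by depth, since Wipi1 and Map1lc3a rest on 10 counts or fewer in each library. No paired analysis was possible because the design holds a single group.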
